A study of Mus musculus with 8 samples.

Results

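The CCN matricellular family is described here in mouse embryonic fibroblasts (MEFs) and in MEFs treated with small molecules. Its members were taken by gene symbol, under the older names of Ccn1 to Ccn5, which are Cyr61, Ctgf, Nov, Wisp1 and Wisp2. They are 5 of the 50578 genes in the deposited count table, and all 5 were among the 15154 genes that passed the filter on low counts. RNA-seq had been performed on 8 libraries in 4 groups of 2, to ask how compounds predicted to move fibroblasts towards hepatocytes changed gene expression.

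All cells were wild-type MEFs from E13.5 C57BL/6J embryos at passage 3 to 5, and the control group was labelled as such without a named vehicle. Each treated group received its compound at 10 µM from 2 h after plating, with a change of medium every 3 days. The compounds were CHIR-99021, an inhibitor of the kinase GSK3, which restrains Wnt signaling, LY-364947, a blocker of TGF-beta receptor activity, and carbidopa, which blocks the enzyme aromatic-L-amino-acid decarboxylase. The labels write LY-364747 for LY-364947, whereas the methods of the study use the latter. How long the sequenced cells had been treated was not given in the sources used here. Heads, tails, limbs and internal organs had been removed from the embryos, and the remaining tissue was cut up and digested to single cells. MEFs obtained in this way are a mixed primary culture and not a clone.

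CCN proteins are secreted, cysteine-rich proteins that settle in the extracellular matrix and signal through integrins and other receptors of neighbouring cells. Fibroblasts are a main source of them, and the family is best known from wound repair, fibrosis, angiogenesis and the growth of cartilage and bone. Cyr61 and Ctgf are textbook targets of YAP and TAZ, the cofactors that carry mechanical signals to TEAD transcription factors, and Ctgf is also a classical target of TGF-beta. Wisp1 and Wisp2 were named for their induction by Wnt1.

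The libraries held 15039566 to 20504338 counted reads. Levels are given as CPM, in which the reads of a gene are scaled to the TMM-normalized size of its library. Group differences were tested with the quasi-likelihood test of edgeR in a single fit of all 8 libraries, and a gene was called higher or lower at a Benjamini-Hochberg adjusted p under 0.05. The labels do not say that replicates were separate cultures, so p-values measure the spread between these libraries, which may be technical. The carbidopa libraries stood farther apart than other replicates, with a chi-square per degree of freedom over genes of 37.9, against 4.57 to 10.0 in the other groups. Fibroblast markers summed to 13838 and 13841 CPM in MEFs. The labels call the treated cells hepatic-like. Of 12 hepatocyte markers only Trf passed the filter, and the others had at most 18 reads in a library. Serpina1a, Tat and Cyp3a11 had none in any library, whereas Alb had 2 and 0 reads in MEFs and 5 to 10 in treated libraries, and Hnf4a 1 and 2 in MEFs and 6 to 10 in treated libraries. Alb and Hnf4a were chosen after their values were seen, and not every listed marker rose. Afp had 1 and 2 reads in MEFs, 0 and 3 under carbidopa and 0 in every LY-364947 and CHIR-99021 library. The sum of the 12 markers, most of it Trf, was 6.54 and 7.48 CPM in MEFs and 6.68 and 4.47 under CHIR-99021. It was higher than in MEFs in every carbidopa and LY-364947 library.

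The genes lie on different chromosomes except for Nov and Wisp1, which lie far apart on chromosome 15. In mm10 with the GENCODE M21 annotation, Cyr61 (ENSMUSG00000028195) spans chr3:145646976-145649981 on the minus strand. Ctgf (ENSMUSG00000019997) spans chr10:24595442-24598683, Nov (ENSMUSG00000037362) chr15:54745702-54754039, Wisp1 (ENSMUSG00000005124) chr15:66891320-66923201 and Wisp2 (ENSMUSG00000027656) chr2:163820861-163833146, all on the plus strand. Cyr61, Ctgf, Nov and Wisp1 have 5 coding exons and 348 to 379 codons in their longest transcript, whereas Wisp2 has 4 coding exons and 251 codons and lacks the C-terminal cystine knot of the others. No 75-base word of their transcripts occurs in the same orientation in a transcript of another gene. Reads of the members in that orientation can thus be told apart from each other, but the opposite strand was not searched. Ctgf overlaps the antisense gene Gm15270, which had 7 to 26 reads per library, against 466 to 5798 for Ctgf. Wisp3, the remaining mouse member of the family, had 1 read in a single CHIR-99021 library and none in the other 7.

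Cyr61 had the only promoter of a member among the RefSeq sequences given for GRCm38.p6. The 250 bases before its start site, chr3:145649986-145650235 on the minus strand, are shown because Cyr61 moved in opposite directions under different treatments. Capitals mark the letters of the TEAD motif (GGAATG) and of the core CREB site (TGACG), both of which lie on the opposite strand.
Cyr61 promoter: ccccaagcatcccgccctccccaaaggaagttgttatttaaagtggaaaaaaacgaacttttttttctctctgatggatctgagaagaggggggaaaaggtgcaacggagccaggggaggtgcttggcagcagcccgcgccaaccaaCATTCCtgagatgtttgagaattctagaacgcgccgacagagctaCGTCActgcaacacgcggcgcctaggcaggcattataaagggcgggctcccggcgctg
The TEAD letters lie 103 to 98 bases before the start and occur on either strand in 12.6% of 32851 promoters of the same length. The CREB letters lie 58 to 54 bases before the start and occur in 17.8% of promoters. The letters searched for AP-1 (TGANTCA, in 6.75% of promoters), SMAD (CAGACA, 17.1%) and TCF/LEF (CTTTGA, 13.8%) and the CArG box, which binds SRF (1.47%), were not in this window on either strand. A match of letters is a description and not evidence of binding.

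In MEFs the family was abundant. Per kilobase of exon, the scale on which genes can be compared, Wisp1 stood at 167 ± 1.91 CPM per kilobase (SD, n = 2), Ctgf at 138 ± 9.82, Cyr61 at 90.3 ± 5.90, Nov at 69.2 ± 9.48 and Wisp2 at 8.61 ± 0.153. Among 15126 tested genes with a known length, the percentile of this level was 98.6 for Wisp1, 98.2 for Ctgf, 97.0 for Cyr61, 95.9 for Nov and 67.9 for Wisp2. Wisp2 alone was thus not among the highly expressed genes of these cells.

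The summed level of the 5 genes was 476 and 469.8 CPM per kilobase in the MEF libraries. It was 114 and 100.1 under carbidopa, 90.1 and 103 under LY-364947, and 301 and 293 under CHIR-99021. Every treated library lay below both MEF libraries, and both CHIR-99021 libraries lay above those of the other treatments. The makeup of the family changed as well: Wisp1 and Ctgf held 35.3% and 29.1% of the sum in MEFs, against 7.03% and 12.7% under carbidopa and 9.03% and 11.4% under LY-364947. Cyr61 held 19.1% in MEFs and 53.3%, 49.0% and 52.8% under carbidopa, LY-364947 and CHIR-99021. In these bulk samples, fewer cells of a type and less RNA per cell cannot be told apart.

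**Figure D1:**
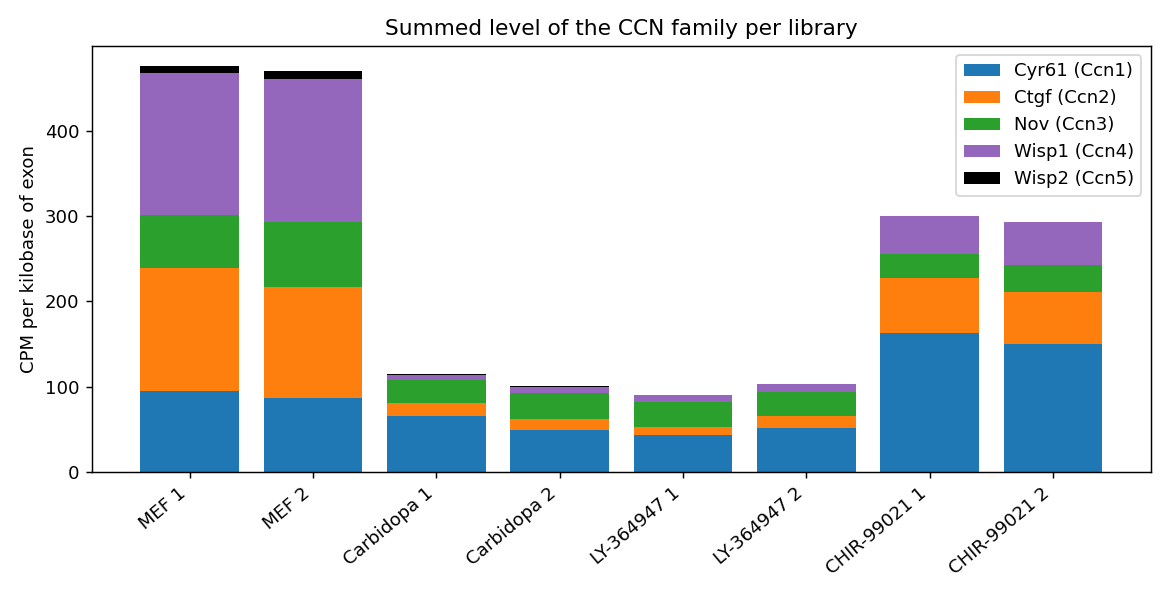
Summed level of the CCN family in each library, in CPM per kilobase of exon, with each member as a coloured part of the bar. MEF bars reach 476 and 469.8 and are mostly Wisp1 and Ctgf, whereas Cyr61 is the largest part of all 6 treated bars.

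Cyr61, a rapidly induced adhesive and angiogenic protein, was the member that differed in direction between treatments. Its level was 191 and 174 CPM in the MEF libraries, 133 and 99.0 under carbidopa, 87.0 and 105 under LY-364947, and 329.6 and 303 under CHIR-99021. CHIR-99021 libraries were the highest and did not overlap MEFs, MEFs did not overlap the other groups, and carbidopa and LY-364947 overlapped each other. Group means were 182 ± 11.9 CPM in MEFs, 116 ± 24.0 under carbidopa, 95.9 ± 12.6 under LY-364947 and 317 ± 18.5 under CHIR-99021 (SD, n = 2 each).

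Against MEFs, Cyr61 rose 1.74-fold under CHIR-99021, a log2 difference of 0.80 ± 0.15 (SE, edgeR adjusted p = 0.00188). It was 1.90-fold lower under LY-364947 (log2 difference -0.93 ± 0.15, edgeR adjusted p = 0.000873) and 1.57-fold lower under carbidopa (-0.65 ± 0.15, edgeR adjusted p = 0.00660). The carbidopa difference was the weakest called for a member against MEFs. Without MEF replicate 1 it was -0.59 and its edgeR adjusted p was 0.0608, and it ranged from -0.88 without carbidopa replicate 1 to -0.45 without carbidopa replicate 2.

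Ctgf, which promotes matrix production and is a standard marker of fibrosis, fell with every treatment but least under CHIR-99021. It stood at 414 and 374 CPM in MEFs, 41.4 and 36.5 under carbidopa, 26.2 and 37.2 under LY-364947, and 182 and 173 under CHIR-99021. The order was MEFs, CHIR-99021, then carbidopa and LY-364947 together, since the libraries of the last pair overlapped. Group means were 394 ± 28.1, 178 ± 6.41, 39.0 ± 3.50 and 31.7 ± 7.83 CPM in that order (SD, n = 2 each). Relative to MEFs, Ctgf was 10.1-fold lower under carbidopa (log2 difference -3.34 ± 0.16, edgeR adjusted p = 1.58e-07), 12.4-fold lower under LY-364947 (-3.63 ± 0.17, edgeR adjusted p = 1.01e-07) and 2.22-fold lower under CHIR-99021 (-1.15 ± 0.15, edgeR adjusted p = 0.000173).

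Nov, a member that opposes Ctgf in several models of fibrosis, fell to nearly the same level in all treated groups. Its libraries held 179 and 218 CPM in MEFs, 77.2 and 86.3 under carbidopa, 83.5 and 83.7 under LY-364947, and 81.2 and 91.9 under CHIR-99021. Both MEF libraries lay above all others, and the 3 treated groups overlapped. Means were 199 ± 27.2 CPM in MEFs, 81.8 ± 6.50 under carbidopa, 83.6 ± 0.137 under LY-364947 and 86.5 ± 7.55 under CHIR-99021 (SD, n = 2 each). The falls were 2.43-fold, 2.38-fold and 2.30-fold under carbidopa, LY-364947 and CHIR-99021, with edgeR adjusted p-values of 2.08e-05, 2.64e-05 and 3.29e-05.

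Wisp1, a growth and survival factor of fibroblasts and bone-forming cells, was the highest member in MEFs and fell the most of the abundant members. It stood at 921 and 936 CPM in MEFs, 37.6 and 45.3 under carbidopa, 47.2 and 49.8 under LY-364947, and 250.3 and 279 under CHIR-99021. No groups overlapped, and the order was MEFs, CHIR-99021, LY-364947 and carbidopa, although edgeR called no difference between the last pair. Means were 929 ± 10.6, 265 ± 20.1, 48.5 ± 1.83 and 41.5 ± 5.47 CPM in that order (SD, n = 2 each). Wisp1 was 22.4-fold lower than in MEFs under carbidopa (log2 difference -4.48 ± 0.13, edgeR adjusted p = 4.89e-09), 19.1-fold lower under LY-364947 (-4.26 ± 0.13, edgeR adjusted p = 6.16e-09) and 3.51-fold lower under CHIR-99021 (-1.81 ± 0.11, edgeR adjusted p = 9.80e-07).

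Wisp2, the short member, was close to the limit of detection after treatment. MEF libraries held 220 and 260 reads, whereas carbidopa libraries held 6 and 4, LY-364947 libraries 11 and 12, and CHIR-99021 libraries 14 and 19. This corresponds to 16.4 and 16.8 CPM in MEFs, 0.282 and 0.187 under carbidopa, 0.617 and 0.639 under LY-364947, and 0.806 and 1.10 under CHIR-99021. The groups did not overlap, but the treated levels rest on few reads. Group means were 16.6 ± 0.294, 0.235 ± 0.0678, 0.628 ± 0.0153 and 0.954 ± 0.210 CPM for MEFs, carbidopa, LY-364947 and CHIR-99021 (SD, n = 2 each). Against MEFs, Wisp2 was 68.7-fold lower under carbidopa (log2 difference -6.10 ± 0.29, edgeR adjusted p = 1.21e-07), 26.1-fold lower under LY-364947 (-4.71 ± 0.25, edgeR adjusted p = 3.22e-07) and 17.3-fold lower under CHIR-99021 (-4.11 ± 0.24, edgeR adjusted p = 5.41e-07). The PCR assay of the study, at the same concentration, also had Wisp2 lower with each of these compounds. The study states a treatment time for the PCR cells but not for the sequenced cells, so the times may differ. There, however, the fall was smallest under carbidopa and much larger under LY-364947 and CHIR-99021. The size and order of the Wisp2 falls thus differed between the assays, and the reason was not tested.

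**Figure D2:**
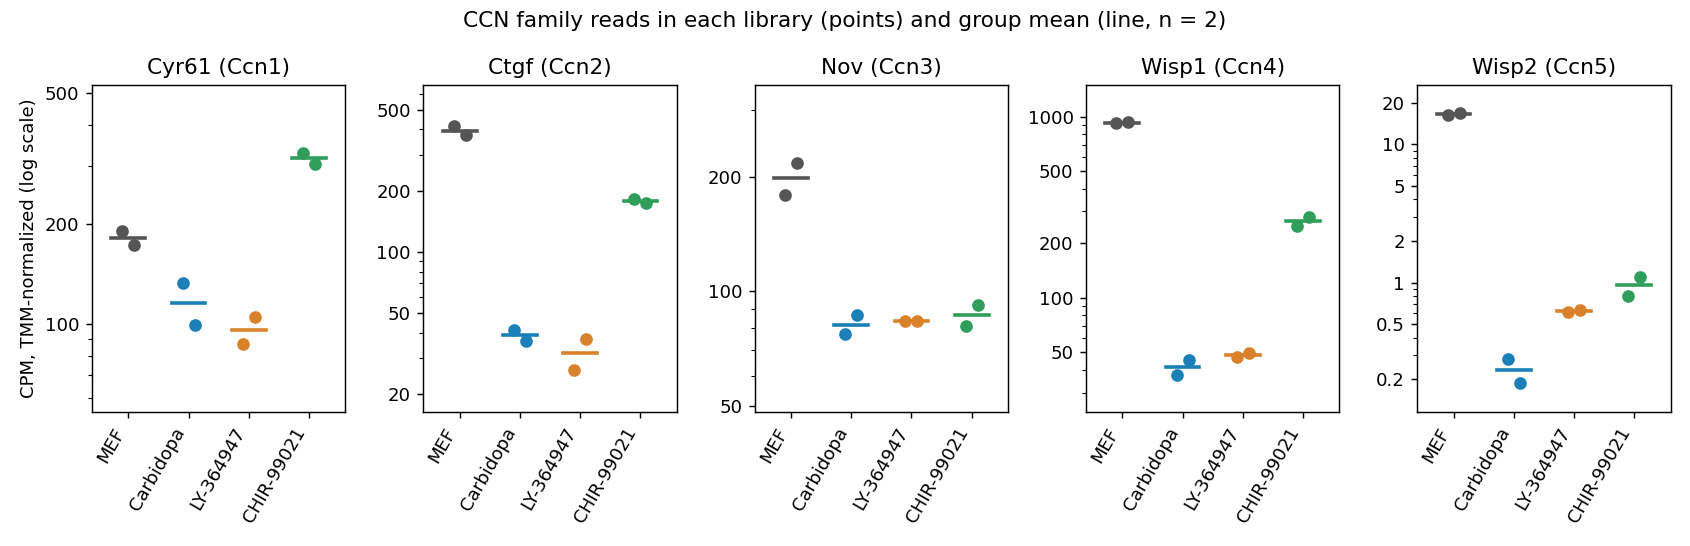
CPM of each CCN member in each library (points, log axis) with the mean of the 2 libraries (line). Cyr61 is above MEFs only under CHIR-99021, the treated groups of Nov coincide, and Ctgf and Wisp1 under CHIR-99021 lie between MEFs and the other treatments.

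Counted over the family, all 5 members were called lower under carbidopa, where 19.7% of all genes tested were lower, 18% higher and 37.7% called in either direction. All 5 were also lower under LY-364947, against a background of 17.2% lower, 13.7% higher and 31% in either direction. With CHIR-99021, 4 were lower and Cyr61 was higher, against 20.1% lower, 18.7% higher and 38.8% in either direction. These comparisons share both MEF libraries, so their calls are not independent of each other. By size, Wisp2, Wisp1 and Ctgf held the ranks 30, 77 and 201 from the lowest log2 difference of 15154 genes under carbidopa, 76, 98 and 157 under LY-364947, and 167, 895 and 1510 under CHIR-99021. Nov held the ranks 1187, 1114 and 1436, and Cyr61 the ranks 2463 and 1511 under carbidopa and LY-364947.

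**Figure D3:**
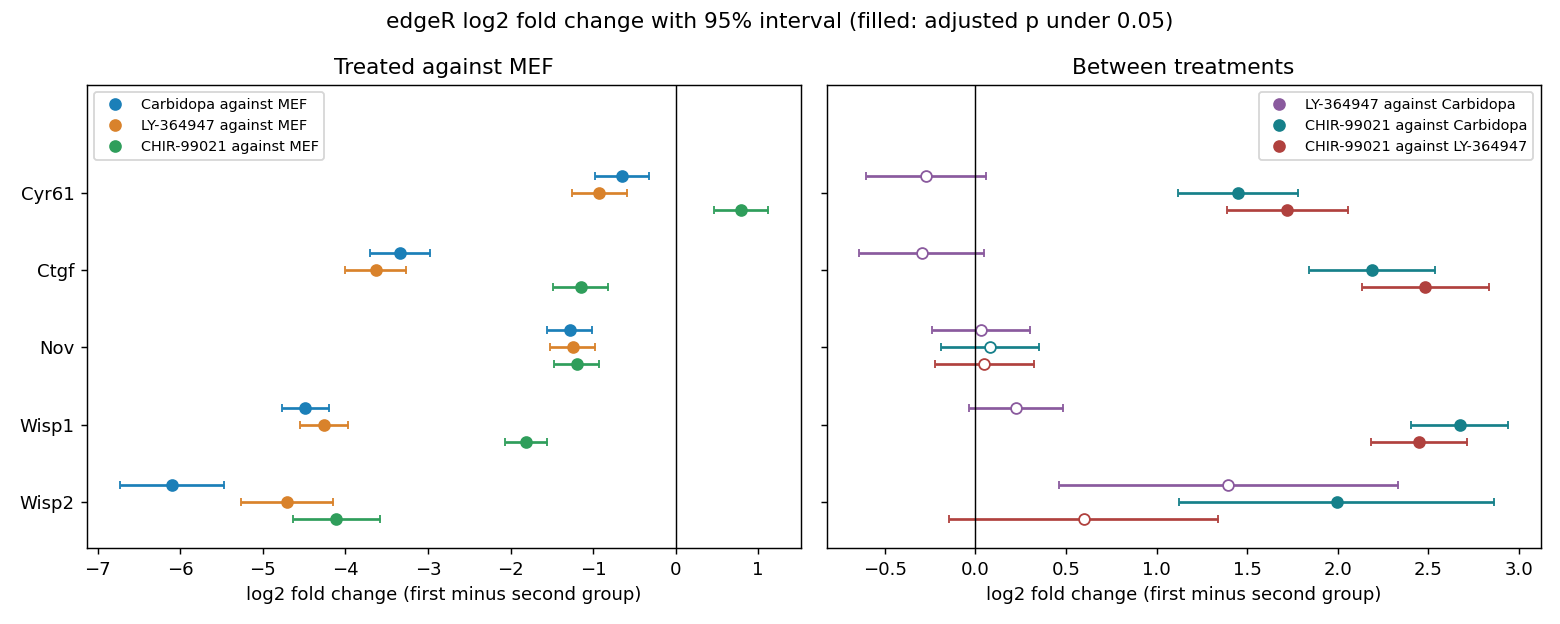
Log2 fold change of each member with its 95% interval, for treatments against MEFs (left) and between treatments (right), filled where the adjusted p was under 0.05. Against MEFs only Cyr61 under CHIR-99021 lies above 0, and between treatments Nov lies near 0 in all 3 comparisons.

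The treatments were next compared with each other at the shared concentration of 10 µM, for each of the 3 pairs of compounds, with p-values adjusted over all genes tested. CHIR-99021 left Cyr61, Ctgf and Wisp1 at higher levels than either other compound did. Against carbidopa, 4 of 5 members were called higher and none lower, where 6.62% of all genes were higher, 8.08% lower and 14.7% either. Wisp1 was 6.38-fold higher (log2 difference 2.67 ± 0.12, edgeR adjusted p = 1.31e-06), Ctgf 4.56-fold (2.19 ± 0.16, edgeR adjusted p = 2.22e-05) and Cyr61 2.73-fold (1.45 ± 0.15, edgeR adjusted p = 0.000209).

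Wisp2 was 3.98-fold higher under CHIR-99021 than under carbidopa (log2 difference 1.99 ± 0.39, edgeR adjusted p = 0.00789). That call was lost in a fit of those 2 groups alone (edgeR adjusted p = 0.0576) and without CHIR-99021 replicate 2 (edgeR adjusted p = 0.0568). For Nov the log2 difference was 0.08, with a 95% interval from -0.19 to 0.35 and an edgeR adjusted p of 0.708.

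Against LY-364947, 3 of 5 members were higher under CHIR-99021 and none was lower, where 6.45% of all genes were higher, 7.69% lower and 14.1% either. Ctgf was 5.60-fold higher (log2 difference 2.48 ± 0.16, edgeR adjusted p = 1.46e-05), Wisp1 5.45-fold (2.45 ± 0.12, edgeR adjusted p = 2.91e-06) and Cyr61 3.30-fold (1.72 ± 0.15, edgeR adjusted p = 9.12e-05). Nov differed by 0.05 on the log2 scale, with a 95% interval from -0.22 to 0.32. Wisp2 differed by 0.60, with an interval from -0.15 to 1.34 and an edgeR adjusted p of 0.297, although its libraries did not overlap.

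Between LY-364947 and carbidopa no member was called by edgeR. Only 2 genes of the table were called at all, both higher (0.0132% higher, 0% lower and 0.0132% either), with 1367 at an unadjusted p under 0.05 and 16 called by DESeq2. The 95% intervals of the log2 difference, LY-364947 minus carbidopa, ran from -0.60 to 0.06 for Cyr61, -0.64 to 0.05 for Ctgf, -0.24 to 0.30 for Nov and -0.03 to 0.49 for Wisp1. For Wisp2 the difference was 1.40 ± 0.42, with an interval from 0.46 to 2.33 and an edgeR adjusted p of 0.519. The groups therefore cannot be said to be alike. Without carbidopa replicate 2, 3816 genes were called in this comparison, among them Cyr61 (log2 difference -0.47, edgeR adjusted p = 0.0130) and Wisp1 (0.37, edgeR adjusted p = 0.0204), whereas without carbidopa replicate 1 there were 3 and no member. The calls of the members under carbidopa against MEFs, and under CHIR-99021 against carbidopa, were kept without either carbidopa library.

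The surroundings of the family were described by lists of its receptors, binding partners and regulators. CCN proteins signal through integrins, low density lipoprotein receptor-related proteins and syndecans. Of 15 such receptors, 13 were tested, and Itgam was left out because it carried more than 1 identifier. In this list 11 were lower under carbidopa, 10 under LY-364947 and 9 under CHIR-99021, and none was higher. Over all genes tested, 19.7%, 17.2% and 20.1% were lower and 18%, 13.7% and 18.7% higher, in the same order. The median log2 differences were -0.89, -0.86 and -0.67, against medians of 0.04, 0.03 and 0.04 over all genes tested.

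Lrp1, an endocytic receptor that binds Ctgf, fell from 3311 and 3073 CPM in MEFs to 404 and 419 under carbidopa, 424 and 395 under LY-364947, and 509 and 483 under CHIR-99021. All treated libraries were far below both MEF libraries (log2 differences -2.96, -2.96 and -2.69, with edgeR adjusted p-values up to 3.28e-08). The integrin subunit gene Itgb5 had 406 and 399 CPM in MEFs, 179 and 156 under carbidopa, 158 and 166 under LY-364947, and 303 and 269 under CHIR-99021. It was lower in each treatment (edgeR adjusted p up to 0.00435) but higher under CHIR-99021 than under carbidopa (log2 difference 0.77) or LY-364947 (0.82). Itga6, another integrin subunit gene, fell by 1.46, 1.10 and 1.23 on the log2 scale under carbidopa, LY-364947 and CHIR-99021.

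Among 9 tested matrix and growth factor partners, 6, 6 and 5 were lower and 2, 2 and 1 higher under carbidopa, LY-364947 and CHIR-99021. The share of all genes called in either direction was 37.7%, 31% and 38.8%. Their median log2 differences were -0.83, -1.01 and -0.65. Bgn, the proteoglycan biglycan, which binds Wisp1, fell from 9201 and 9974 CPM in MEFs to 378 and 449 under carbidopa, 547 and 520.2 under LY-364947, and 1027 and 1184 under CHIR-99021. As for Wisp1, the CHIR-99021 libraries lay between MEFs and the other treatments, and Bgn was higher under CHIR-99021 than under carbidopa (log2 difference 1.42, edgeR adjusted p = 7.48e-05) or LY-364947 (1.05, edgeR adjusted p = 0.000383). Fn1, the matrix protein fibronectin, was lower in each treatment, with log2 differences of -2.79, -2.34 and -1.96. Those of the growth factor gene Fgf2 were -1.98, -1.84 and -1.81.

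The transcription factors and cofactors known to act on CCN genes went in both directions. Of 17 tested, 8 were lower and 3 higher under carbidopa, where 37.7% of all genes were called, 7 and 2 under LY-364947 (31% of all genes), and 5 and 2 under CHIR-99021 (38.8%). The medians were -0.36, -0.21 and -0.00. Wwtr1, which encodes TAZ, stood at 368 and 406 CPM in MEFs, 197 and 197 under carbidopa, 212 and 203 under LY-364947, and 194 and 220 under CHIR-99021. It fell in each treatment (log2 differences -0.97, -0.90 and -0.90, edgeR adjusted p up to 8.18e-05). Yap1, chosen after its values were seen because it is the partner of TAZ, differed from MEFs by 0.02, 0.04 and 0.04 on the log2 scale, with edgeR adjusted p-values from 0.743 to 0.867. Smad4, the common mediator of TGF-beta signals, fell by 1.71, 1.47 and 1.09, whereas Smad3, a receptor-activated SMAD, rose by 0.64, 0.72 and 0.71.

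Direct TGF-beta targets and feedback genes, a list without CCN members, were mostly lower under carbidopa and LY-364947 and mostly higher under CHIR-99021 than with either. Of 12 genes, 11 were lower and 1 higher under carbidopa and under LY-364947 each, with medians of -1.28 and -1.32. The higher gene was Pmepa1 both times, named here after its values were seen. It had 138 and 151 CPM in MEFs, 219 and 192 under carbidopa, and 199 and 208 under LY-364947. CHIR-99021 gave 6 lower and 2 higher against MEFs and a median of -0.28. It gave 11 higher and 1 lower against each of the other treatments, where the lower gene was Tgfbi both times. Against MEFs, 37.7%, 31% and 38.8% of all genes were called under carbidopa, LY-364947 and CHIR-99021. For CHIR-99021 against carbidopa and LY-364947 the share was 14.7% and 14.1%.

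Skil, a feedback repressor of SMADs, had 108 and 116 CPM in MEFs, 24.9 and 26.0 under carbidopa, 27.9 and 25.9 under LY-364947, and 124 and 141 under CHIR-99021. Its CHIR-99021 libraries lay above both MEF libraries, but the log2 difference of 0.24 was not called (edgeR adjusted p = 0.0888), whereas Skil fell by 2.14 and 2.06 on the log2 scale under carbidopa and LY-364947. Tgfbi, which encodes a matrix protein, went the other way between treatments, with 91.4 and 81.2 CPM in MEFs, 28.9 and 28.4 under carbidopa, 30.1 and 30.0 under LY-364947, and 5.30 and 3.83 under CHIR-99021.

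YAP/TEAD targets, listed without Cyr61 and Ctgf, did not move in a single direction. Of 20 genes, 10 were lower and 6 higher under carbidopa, 6 and 6 under LY-364947, and 4 and 9 under CHIR-99021, with medians of -0.29, -0.23 and 0.28. Against carbidopa, CHIR-99021 gave 8 higher and 1 lower, and against LY-364947 6 higher and 1 lower. Shares over all genes, in either direction, were 37.7%, 31% and 38.8% against MEFs in the same order of treatments. They were 14.7% and 14.1% for CHIR-99021 against carbidopa and LY-364947. The named members split: Ccdc80, a matrix protein gene, fell under carbidopa, LY-364947 and CHIR-99021 (log2 differences -4.30, -4.31 and -3.99), whereas Tgfb2, a TGF-beta ligand, rose by 2.14, 2.47 and 2.41. Fjx1, which encodes a secreted protein, rose from 8.92 and 8.84 CPM in MEFs to at least 67.5 CPM in every treated library.

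Canonical Wnt targets and feedback genes were mixed. Of 10 tested, 3 were lower and 2 higher under carbidopa, 2 and 2 under LY-364947, and 3 and 3 under CHIR-99021, with medians of -0.24, -0.06 and 0.01. Among all genes tested, 37.7%, 31% and 38.8% were called in these comparisons. Lgr5, a receptor of R-spondins, fell from 398 and 423 CPM in MEFs to between 0.505 and 1.04 CPM in the treated libraries. Tcf7, a transcription factor of the pathway, rose from 0.521 and 0.516 CPM to between 2.33 and 4.93 CPM. Nkd2, a Wnt inhibitor, fell in each treatment (log2 differences -2.11, -2.01 and -1.56, in the same order of treatments).

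**Figure D4:**
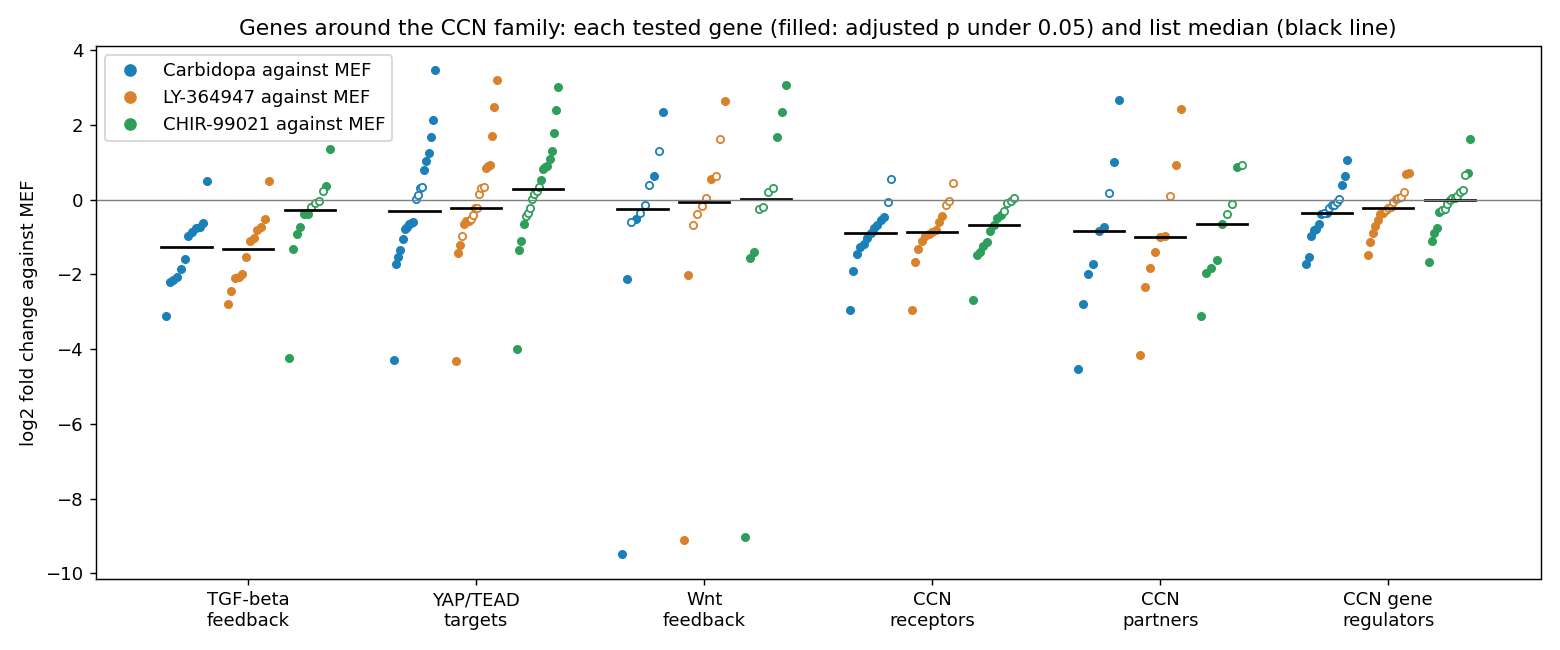
Log2 fold change against MEFs of each tested gene in the lists around the CCN family, filled where the adjusted p was under 0.05, with the median of each list as a black line. TGF-beta feedback genes under CHIR-99021 have a median of -0.28, against -1.28 and -1.32 under carbidopa and LY-364947, and no receptor is called higher.

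Markers of cell types that a MEF culture can hold moved with the treatments too. Of 8 smooth muscle and myofibroblast markers, all 8 were lower under carbidopa and under LY-364947, and 6 were lower and 1 higher under CHIR-99021, which had 6 higher and none lower against each of the other treatments. Of all genes tested, 19.7%, 17.2% and 20.1% were lower than in MEFs under carbidopa, LY-364947 and CHIR-99021. In the same order, 18%, 13.7% and 18.7% were higher. Under CHIR-99021, 6.62% were higher and 8.08% lower than under carbidopa, and 6.45% were higher and 7.69% lower than under LY-364947. The summed level of these markers was 3273 and 3008 CPM in MEFs, 492 and 399 under carbidopa, 359 and 403 under LY-364947, and 939 and 795 under CHIR-99021. Acta2, Myh11 and Actg2, which encode contractile proteins, were lower in each treatment, with log2 differences of -4.51, -4.32 and -4.17 for Acta2. Thus the summed order was that of Ctgf and Wisp1, under CHIR-99021 between MEFs and the rest, but Acta2 itself did not show it, with 134 and 94.6 CPM under CHIR-99021 against 90.1 to 114 with the other treatments.

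Of 12 fibroblast markers, 9, 9 and 8 were lower and 2 higher in each treatment, and their sum was 4544 to 5144 CPM in the treated libraries. For this list and the next ones, the shares over all genes were 19.7%, 17.2% and 20.1% lower. Those called higher were 18%, 13.7% and 18.7%, for carbidopa, LY-364947 and CHIR-99021 against MEFs. Fbln2, a matrix glycoprotein gene, was lower in each treatment, with log2 differences of -3.34, -3.16 and -1.35. Those of Col1a2 were -1.98, -1.89 and -2.30, and those of Lum, a small proteoglycan gene, -2.69, -2.55 and -2.83. Of 14 macrophage markers, 13, 13 and 14 were lower, and their sum fell from 1309 and 1349 CPM in MEFs to 408 and 389 under carbidopa, 289.7 and 299.6 under LY-364947, and 98.1 and 104 under CHIR-99021. Mrc1, Lyz2 and Ctss were lower with every treatment, and Mrc1 fell by 6.05 under CHIR-99021 against 0.86 under carbidopa. The macrophage sum was lowest under CHIR-99021, where Cyr61, Ctgf and Wisp1 were called higher than with either other treatment. Wisp2 was also highest there among the treated groups, but on few reads and without a call against LY-364947 (edgeR adjusted p = 0.297). The 8 endothelial markers, with Cldn5 at 0 in every library, summed to 12.9 to 20.9 CPM, the 8 cartilage markers to 11.3 to 23.8, the 8 epithelial markers to 4.39 to 21.6 and the 12 hepatocyte markers to 4.47 to 14.6. Few of these genes could be tested, and called higher and lower were 0 and 1, 0 and 1, and 0 and 2 of 4 endothelial markers, 2 and 1, 1 and 1, and 1 and 1 of 3 cartilage markers, and 1 and 1, 1 and 1, and 3 and 1 of 4 epithelial markers, for carbidopa, LY-364947 and CHIR-99021 against MEFs. Trf, which encodes transferrin, was higher under carbidopa (log2 difference 0.80, edgeR adjusted p = 0.0231) and was not called under LY-364947 (0.54) or CHIR-99021 (-0.61). The part of these cell types in the results for CCN genes was not tested.

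Genes whose pattern was most like that of a member were sought among 13206 tested genes by Pearson's correlation of log2 CPM over the 8 libraries, which fall into the same 4 groups for every gene, so that values near 1 are common. Cyr61 was most like Wdr1 (0.9992), Myc (0.9877) and Nat10 (0.9871). Ctgf was most like Rasl11b (0.9955), Itgb5 (0.9926) and Cnn1 (0.9924), of which Itgb5 is also in the receptor list and Cnn1 among the smooth muscle markers. For Nov they were Wwtr1 (0.9942), Sec23a (0.9942) and Megf6 (0.994), for Wisp1 Ncam1 (0.9995), Fbln2 (0.9984) and Ywhag (0.9976), and for Wisp2 Il13ra1 (0.9933), Itgav (0.9929) and Smad4 (0.9925). A likeness in pattern was not one in size: Wdr1 ranged from a mean of 216 CPM under LY-364947 to 306 under CHIR-99021, against 95.9 to 317 for Cyr61. Ranked by Spearman's correlation, only Wdr1 and Smad4 of these 15 pairs stayed among the 3 most alike genes.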

How the data were processed

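RNA-seq counts of 8 libraries were used, 4 groups of 2, grouped by the sample labels. The authors mapped paired reads to mm10 with STAR 2.4.2a and counted them per gene with featureCounts, and deposited raw counts without normalization (bcl2fastq and DESeq2 are also named in the submitters' processing notes). The annotation release and strand setting were not given in the sources used here. The library kit is SMARTER in the labels but NEBNext Ultra in the methods. Total counts were 15039566 to 20504338 per library. No source names molecular identifiers, so reads were not taken for independent molecules and counting error is only part of the error.

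Counts were analysed in R 4.3.3 with edgeR 4.0.16 (TMM, filterByExpr, quasi-likelihood test, group as the only term, all 8 libraries, Benjamini-Hochberg over 15154 genes per comparison, threshold 0.05). CPM and log2 CPM (prior count 2) used TMM library sizes. Exon lengths and positions came from GENCODE M21, in which 50354 of 50578 identifiers (99.6%) were found. Promoters came from RefSeq, which held 1 of 5 members in the table used.

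The members and gene lists were chosen with earlier results of these data known, so their counts are descriptions. Named genes are the members, up to 3 genes per list with the smallest p over all groups, and the 3 genes most alike to each member. Itgam was left out for carrying more than 1 identifier, and some genes that the rule names are not reported here. Alternatives were DESeq2 1.42.0 (Wald test), RLE size factors, no filter, at least 10 counts in every library, the compared groups alone, a replicate block, leaving out each library, and Spearman's correlation. A block with exchanged LY-364947 numbers was added after seeing the data.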

Additional observations from a re-analysis of the deposited data

How the results depend on the processing

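All calls of members against MEFs and of Cyr61, Ctgf and Wisp1 with CHIR-99021 against the other treatments were kept under DESeq2, RLE size factors, no filter, at least 10 counts in every library (which leaves no value for Wisp2), the compared groups alone and the replicate blocks. In the fit of the compared groups alone, Wisp2 between CHIR-99021 and carbidopa (log2 difference 2.00) lost its call, with an edgeR adjusted p of 0.0576. With a library left out, its arm holds 1 library, which is assumed to vary like the other groups. Cyr61 with carbidopa against MEFs then ranged from -0.88 to -0.45, with the call lost without MEF replicate 1 (-0.59), and Wisp2 with CHIR-99021 against carbidopa from 1.73 to 2.31, with the call lost without CHIR-99021 replicate 2 (1.76). For LY-364947 against carbidopa, Cyr61 ranged from -0.472 to -0.0468, Wisp1 from 0.0963 to 0.366 and Nov from -0.0474 to 0.115, and the number of members called ranged from 0 to 1 in each direction, with Cyr61 and Wisp1 called without carbidopa replicate 2. Nov also changed sign without CHIR-99021 replicate 2, against carbidopa (-0.00547, range to 0.172) and against LY-364947 (-0.0369, range to 0.140), where it was not called. By Spearman's correlation, 1 of the 3 most alike genes was kept for Cyr61 and Wisp2 and 0 for Ctgf, Nov and Wisp1.

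Libraries share replicate numbers, and the correlations of same-numbered deviations ran from -0.161 to 0.128. With a single difference between replicates per group, these values cannot tell whether the numbers pair the samples. The main fit did not pair them. The replicate block changed no call of a member and gave 5473, 4424 and 5722 genes called for carbidopa, LY-364947 and CHIR-99021 against MEFs, against 5717, 4694 and 5878 without it. The block with LY-364947 numbers exchanged gave 6581, 5432 and 6681. Over all genes, LY-364947 against carbidopa gave 2 calls, but 329 with no filter, 16 with DESeq2 and 0 in the fit of those groups alone (566 at an unadjusted p under 0.05). CHIR-99021 against carbidopa gave 2227 calls but 1027 with those groups alone, and CHIR-99021 against LY-364947 2143 but 3673. Treated levels of Wisp2 rest on 4 to 19 reads per library.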
